A study of Arabidopsis thaliana with 8 samples.

Results

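The 5 genes TCP2 (AT4G18390), TCP3 (AT1G53230), TCP4 (AT3G15030), TCP10 (AT2G31070) and TCP24 (AT1G30210) encode the Arabidopsis thaliana TCP transcription factors whose mRNAs carry a target site for the microRNA miR319. They were taken by locus from a table of 27415 genes. All 5 passed the filter on low counts, which left 19823 genes. Seedlings of the Col-0 accession were kept in darkness for 4 days and were then collected either without light or after 4 h of white light. From whole seedlings of both kinds the study sequenced steady-state mRNA and ribosome-protected mRNA, the fragments left when RNase I digests a polysome extract and ribosomes shield what they cover. There were 4 groups, each with a repeat 1 and a repeat 2, or 8 libraries. All groups share the accession and the dark growth, and the labels name no transgene or mutation.

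TCP factors are found in plants and bind DNA through the TCP domain, which is named after the founding members TEOSINTE BRANCHED1, CYCLOIDEA and PCF. The CINCINNATA (CIN) branch, to which the 5 genes belong, is known for restraining cell proliferation and promoting differentiation at the margins of leaves and cotyledons. In plants, miR319 pairs with a site within the coding sequence of these mRNAs and directs their cleavage by an Argonaute protein. Plants that overproduce the microRNA have crinkled leaves, and plants with a site that resists it arrest growth early. CIN factors are also known to promote cotyledon opening in seedlings that leave the dark.

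The mature microRNAs and the sites are shown first, since they define the group. The mature sequences were read 5′ to 3′ from the RefSeq annotation of the TAIR10.1 assembly, with the seed (bases 2 to 8) in capitals. The miR319a and miR319b sequences are identical, miR319c differs from them at its 3′ end, and miR159a is the related microRNA whose usual targets are MYB factors.
miR319a (chr4:12353109-12353129, plus strand): uUGGACUGaagggagcucccu
miR319c (chr2:17029870-17029890, plus strand): uUGGACUGaagggagcuccuu
miR159a (chr1:27713234-27713254, minus strand): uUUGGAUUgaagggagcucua

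Each site is given 5′ to 3′ on the mRNA strand as DNA letters, and capitals mark bases that form a Watson-Crick pair with miR319a. All 5 sites lie within 1 coding exon, and the positions are those of the TAIR10.1 assembly.
TCP2 (chr4:10163402-10163422, minus strand): caGGgGgaCCCTTCAGTCCAA
TCP3 (chr1:19850522-19850542, minus strand): gaGGgGtcCCCTTCAGTCCAt
TCP4 (chr3:5063300-5063320, plus strand): gaGGgGtcCCCTTCAGTCCAg
TCP10 (chr2:13221210-13221230, minus strand): AaGGgGtaCCCTTCAGTCCAg
TCP24 (chr1:10628989-10629009, minus strand): taGGgGgaCCCTTCAGTCCAA

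Over the 21 bases, the sites of TCP2, TCP10 and TCP24 had 16 Watson-Crick pairs with miR319a, and those of TCP3 and TCP4 had 15. Pair counts alone do not set the 5 genes apart. In 38 annotated coding sequences the best match left at most 5 bases outside such pairs, and TCP3 and TCP4 left 6. The MYB genes MYB33, MYB65 and MYB104 had 18 Watson-Crick pairs with miR319a, more than any of the 5. The run CCCTTCAGTCCA, of 12 bases, was common to the 5 sites, and 7 of 26690 annotated coding sequences held it on the mRNA strand, a share of 0.0262%. TCP2 and TCP24 form a Watson-Crick pair with the first base of the microRNA and TCP4 and TCP10 a G:U pair, whereas TCP3 forms neither. The 3 other CIN genes, TCP5, TCP13 and TCP17, had no comparable site, and their best matches left 8 to 9 bases outside Watson-Crick pairs. The precursor loci of miR319 and miR159 were not in the gene tables, so the microRNAs themselves were not analysed here.

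Coding sequences took 30997341 to 37245819 reads per mRNA library, and per ribosome-protected library 4843438 (dark) and 4617343 (light) in repeat 1 against 14974871 and 40972194 in repeat 2. Values of a gene in the ribosome-protected libraries of repeat 1 therefore rest on few reads. Nothing in the labels tells if a repeat was its own culture, and p-values here reflect the spread among these libraries alone, which may be technical. Of 4 markers of etiolation and light, 1 passed the main test in mRNA and all 4 passed with the replicate block described below and in DESeq2. HY5, the bZIP factor of photomorphogenesis, rose in mRNA by 1.70 on the log2 scale (adjusted p = 0.0150, edgeR), and PORA, the etiolated seedling's protochlorophyllide oxidoreductase, had 83.3 and 562.8 CPM (counts scaled to library size) in dark mRNA against 4.31 and 8.39 after light (log2 -5.67 ± 1.41, adjusted p = 0.0815 in edgeR). PHYA and ELIP1 did not pass either (adjusted p = 0.0950 and 0.106). In whole seedlings, fewer cells of a type and less RNA per cell cannot be told apart.

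Levels can be compared between genes only per length, and the RPKM of the coding sequence (reads scaled to length and library total by the authors) was used for that. In dark mRNA, TCP24 had 5.63 and 12.4 RPKM in repeats 1 and 2, TCP3 8.11 and 16.7, and TCP4 4.45 and 9.26. TCP2 had 3.80 and 8.01 RPKM there, and TCP10 3.43 and 2.99. TCP3 headed this order and TCP10 closed it in both repeats, but repeat 2 was higher than repeat 1 for every member except TCP10. That margin exceeded the gaps between neighbours in the order, apart from the gap between TCP2 and TCP10 in repeat 2. After light, TCP3 stood apart from the other members at 32.4 and 29.9 RPKM. TCP4 followed at 12.2 and 13.2 RPKM, with TCP10 at 11.8 and 11.5, TCP24 at 9.28 and 12.5, and TCP2 lowest at 7.63 and 5.50. The ranges of TCP10 and TCP4 did not overlap in light mRNA, while that of TCP24 overlapped the ranges of both.

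The order among ribosome-protected reads was different. In the dark TCP24 led with 3.25 and 7.61 RPKM. TCP2 had 1.80 and 3.68 RPKM, a range that overlapped that of TCP24, and TCP3 had 2.19 and 2.49, a range that did not. TCP10 had 1.46 and 1.80 RPKM and TCP4 0.783 and 2.01, so TCP2, TCP3, TCP10 and TCP4 formed a chain of overlapping or adjoining ranges. After light TCP10 led with 10.8 and 10.5 RPKM. TCP3 had 8.30 and 7.87 and TCP24 5.44 and 8.07, and these ranges overlapped, while TCP2 had 4.06 and 3.93. TCP4 was lowest, with 1.85 and 3.15 RPKM, although it was second in light mRNA.

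**Figure D1:**
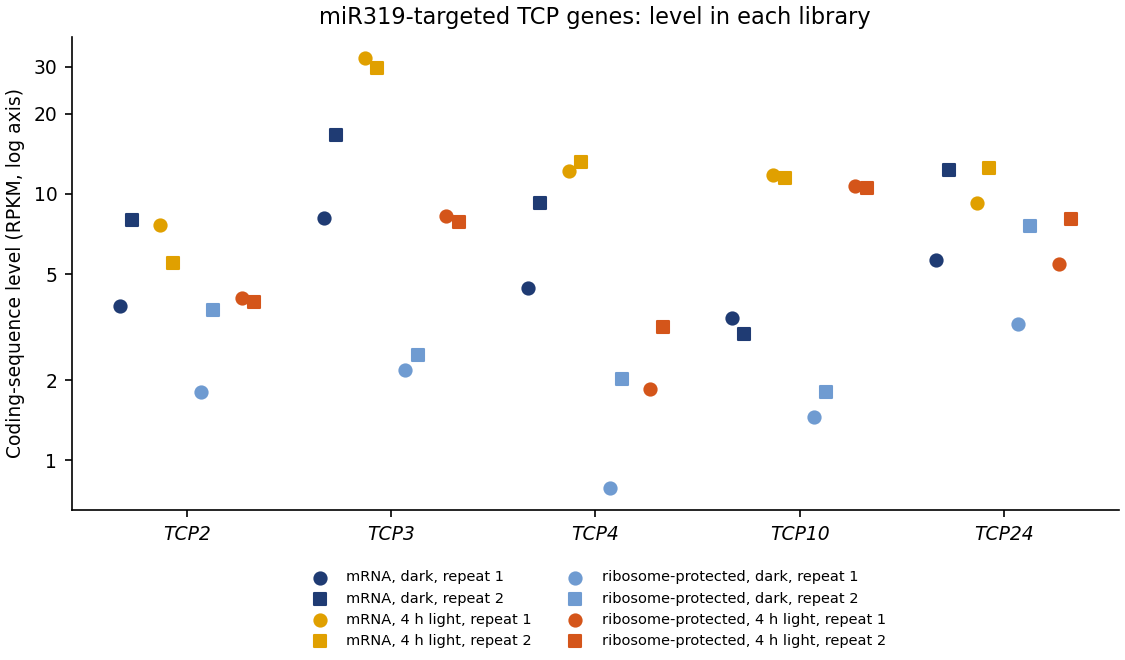
Level of the coding sequence of each TCP gene in every library, in RPKM on a log axis. Circles are repeat 1 and squares repeat 2, and colours give the kind of library and the condition. TCP3 is highest in light mRNA (32.4 and 29.9 RPKM), TCP10 is highest among light ribosome-protected reads (10.8 and 10.5 RPKM), and the ribosome-protected levels of TCP3 and TCP4 lie well under their mRNA levels.

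Light raised the mRNA of TCP3 and TCP10, and the same 2 genes rose among ribosome-protected reads. TCP4 had higher values after light in both repeats and both kinds of read without passing the test, and TCP2 and TCP24 showed the smallest changes. Of all tested genes 3.34% rose in mRNA (edgeR, adjusted p under 0.05) and 4.71% rose among ribosome-protected reads, against 2 of the 5 members in each. Values below are CPM after TMM scaling, and changes are log2 differences between light and dark with their SE from the edgeR quasi-likelihood fit over all genes (n = 2 libraries per group, Benjamini-Hochberg adjustment).

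TCP10, the lowest member in dark mRNA, had the largest fitted changes of the 5. Its mRNA was at 4.45 and 3.19 CPM in the dark (repeats 1 and 2) and at 15.8 and 13.7 CPM after light. Its ribosome-protected level went from 1.78 and 2.11 CPM to 13.0 and 14.1 CPM. Light and dark libraries did not overlap in either kind of read. With 2 libraries per group a lack of overlap is weak evidence, here and below, and its share over all genes was not counted. The log2 change was 1.95 ± 0.27 in mRNA (adjusted p = 0.0150) and 2.78 ± 0.30 in ribosome-protected mRNA (adjusted p = 0.00593), or 3.86-fold and 6.87-fold. Among all tested genes, 94.9% had a lower mRNA change and 96.5% a lower ribosome-protected change. Behind the ribosome-protected values stood 8 and 30 coding reads in the dark and 55 and 477 after light. Without any one of the 4 mRNA libraries the mRNA change ran from 1.71 to 2.14 and missed the threshold (adjusted p = 0.0708 to 0.0951). The ribosome-protected change missed it without the dark repeat 1 (adjusted p = 0.0511), the dark repeat 2 (0.0511) or the light repeat 2 (0.0502).

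TCP3, which has been studied for its part in leaf and cotyledon margin development, had 11.4 and 19.3 CPM in dark mRNA and 47.1 and 38.4 CPM in light mRNA. Ribosome-protected TCP3 rose from 2.90 and 3.16 CPM to 10.9 and 11.4 CPM. The groups again did not overlap, and the ribosome-protected repeats lay closer together than the mRNA repeats. The log2 change was 1.48 ± 0.30 in mRNA (adjusted p = 0.0454) and 1.87 ± 0.33 in ribosome-protected mRNA (adjusted p = 0.0233), or 2.78-fold and 3.66-fold. The mRNA change was 2.04 in repeat 1 and 0.99 in repeat 2, and the ribosome-protected change 1.88 and 1.83. The mRNA call was close to the threshold: it was lost without any one of the 8 libraries (log2 1.08 to 1.89, adjusted p = 0.0768 to 0.213), with another scaling (RLE, adjusted p = 0.0578) and when reads of all 3 gene regions were counted (0.0585). The ribosome-protected call was lost without any one ribosome-protected library (adjusted p = 0.0841 to 0.133), without the light mRNA repeat 2 (0.0553) and with reads of all 3 regions (0.0645).

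TCP4, the member most used to study how miR319 limits CIN activity, had 6.70 and 11.5 CPM in dark mRNA and 19.0 and 18.2 CPM in light mRNA. Its log2 change of 1.03 ± 0.46 did not pass (adjusted p = 0.297), but with the repeat number as a block, which removes the offset between repeats, it did (adjusted p = 0.00996). Under the block 19.4% of all genes rose and 14.2% fell in mRNA, and 17.3% rose and 14.6% fell among ribosome-protected reads. Ribosome-protected TCP4 had 1.11 and 2.74 CPM in the dark and 2.60 and 4.92 CPM after light, so that the groups overlapped (0.92 ± 0.51, adjusted p = 0.372). This change was 0.33 without the light repeat 2 and 1.82 without the dark repeat 2.

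TCP2 had 4.98 and 8.63 CPM in dark mRNA and 10.4 and 6.60 CPM in light mRNA. Its repeats moved in opposite directions, by 1.05 and -0.38, and the fitted change was 0.32 ± 0.42 (adjusted p = 0.788). Ribosome-protected TCP2 had 2.23 and 4.36 CPM in the dark and 4.96 and 5.33 CPM after light. This change did not pass (0.60 ± 0.46, adjusted p = 0.532), although both repeats were higher and the groups did not overlap. TCP24, the closest relative of TCP2 in the family, had 6.56 and 11.8 CPM in dark mRNA and 11.2 and 13.3 CPM in light mRNA (0.41 ± 0.47, adjusted p = 0.735). Its ribosome-protected change was 0.42 ± 0.49 (adjusted p = 0.700), with overlapping groups. The 95% intervals, -0.70 to 1.53 for the mRNA change of TCP24 and -0.70 to 1.33 for that of TCP2, do not limit these changes closely. Whether the changes of TCP3 and TCP10 differ from those of TCP2 and TCP24 was not tested.

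**Figure D2:**
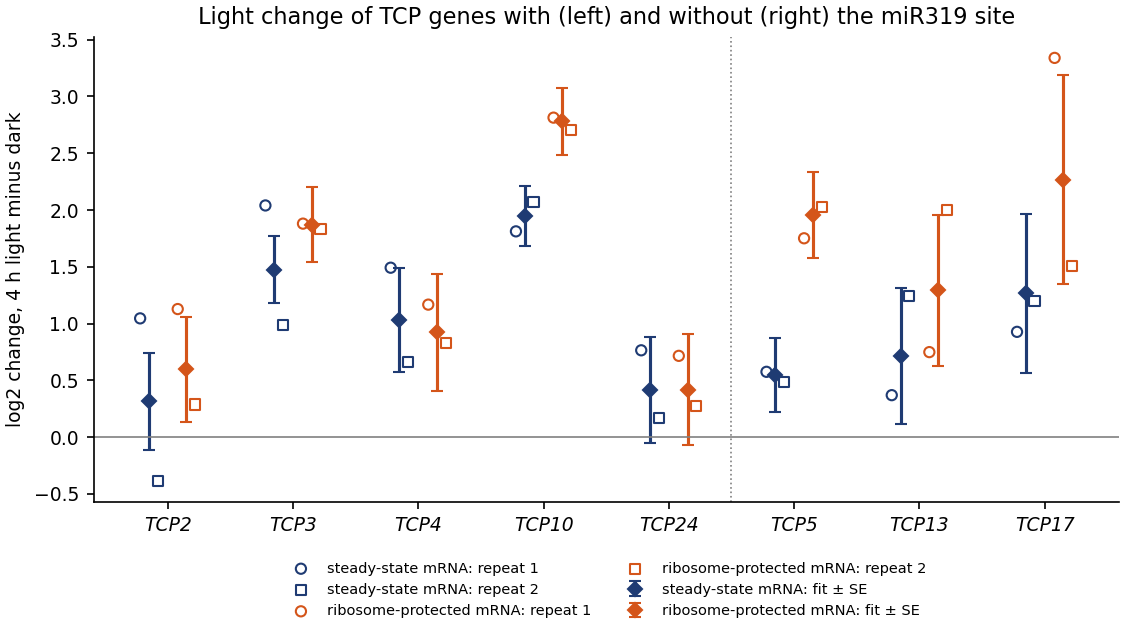
Log2 change from dark to 4 h of light for the 5 TCP genes with the miR319 site (left of the dotted line) and the 3 other CIN genes (right). Filled diamonds with bars are the fitted change ± SE, open circles and squares are the differences within repeats 1 and 2, blue is steady-state mRNA and orange ribosome-protected mRNA. TCP10 has the largest ribosome-protected change of the 5 (2.78 ± 0.30), and the mRNA of TCP2 is the only series whose repeats fall on both sides of 0.

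Light did not change the ratio of ribosome-protected to steady-state reads past the threshold for any of the 5 genes in edgeR, and 0% of all genes passed in either direction. At an unadjusted p under 0.05 there were 261 of the 19823 genes and none of the 5, and DESeq2 called 15 genes, again none of the 5. The 261 are fewer than this threshold would pass without any effect. The edgeR fit is thus conservative for this contrast, and the absence of the 5 says little. TCP10 had the largest value, 0.83 ± 0.39 (adjusted p = 1), with 1.00 in repeat 1 and 0.63 in repeat 2. TCP3 had 0.40 ± 0.43, TCP2 0.28 ± 0.62, TCP24 0.01 ± 0.66 and TCP4 -0.11 ± 0.70. The 95% interval for TCP4 ran from -1.77 to 1.56, so this fit, which has no block for the repeats, did not limit the change closely in either direction.

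Within each condition, TCP3 had far fewer ribosome-protected coding reads than its mRNA level would give, relative to all genes. In the dark its log2 ratio of ribosome-protected to steady-state reads was -2.33 ± 0.32 (adjusted p = 0.0291), a 5.03-fold deficit, and after light -1.94 ± 0.31 (adjusted p = 0.0357), or 3.82-fold. Only 3.38% of tested genes had a lower ratio in the dark and 4.55% after light. The median over all genes was 0.01 in both conditions. TCP3 was the single member called low in each condition, where 3.87% (dark) and 2.36% (light) of all genes were called low and 0.787% and 0.101% high. Both calls were lost without any one of the 8 libraries, with a log2 ratio of -2.73 to -1.91 in the dark and -2.12 to -1.78 after light.

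TCP4 had ratios of the same size as TCP3, -2.13 ± 0.51 in the dark and -2.24 ± 0.49 after light, with more spread between its libraries (adjusted p = 0.0658 and 0.0716). With the repeat number as a block it passed in both conditions (adjusted p = 0.00237 and 0.00158), as it did in DESeq2 (0.00507 and 0.00260). Leaving out 1 library, the TCP4 ratio ran from -3.03 to -1.69 in the dark and from -2.84 to -1.92 after light. TCP10 had -0.95 ± 0.29 in the dark (adjusted p = 0.107, and 0.0317 with the block) and -0.12 ± 0.26 after light (adjusted p = 0.858). TCP2 had -0.995 ± 0.448 and -0.71 ± 0.44, and TCP24 -0.62 ± 0.48 and -0.62 ± 0.47, none of which passed. The dark ratio of TCP24 was -0.14 without the dark mRNA repeat 2 and -1.37 without the dark ribosome-protected repeat 2. All 10 values of the 5 genes were negative, but a negative value is common, as the median over all genes was 0.01 in each condition. For TCP10 after light 43.3% of tested genes had a lower ratio. For TCP2 and TCP24 the share of genes with a lower ratio was 15.2 to 24.8%. With the block the members called low numbered 3 of 5 in the dark and 2 of 5 after light, against 21.1% and 18.4% of all genes. The light and dark ratios of a gene share no library, but the light change of the ratio is their difference, and it did not pass for any member.

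**Figure D3:**
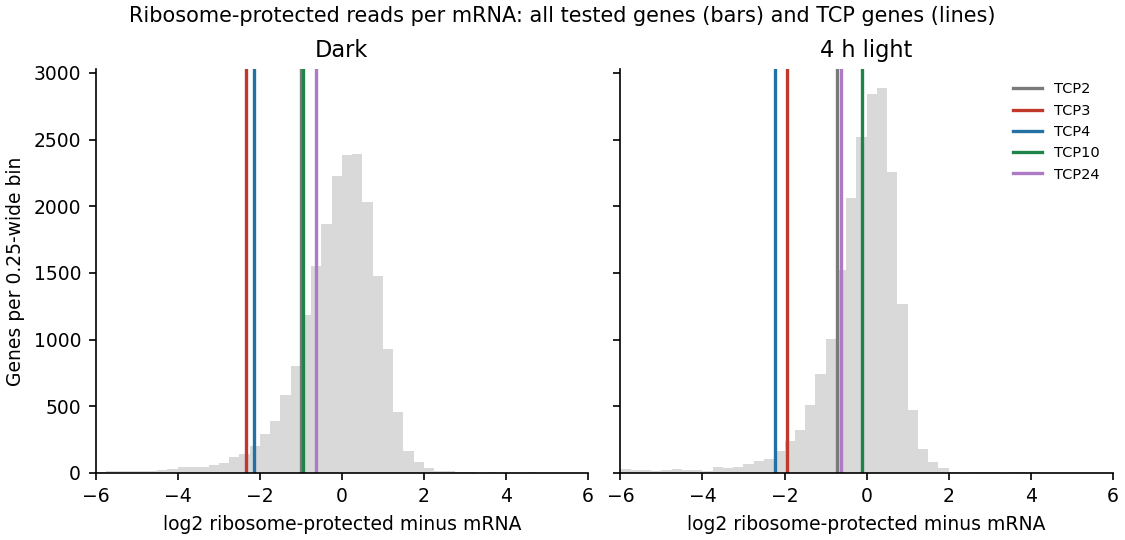
Distribution over 19823 genes (grey bars, bins 0.25 wide) of the log2 ratio of ribosome-protected to steady-state coding reads in the dark (left) and after 4 h of light (right). Vertical lines mark the 5 TCP genes. TCP3 (-2.33 and -1.94) and TCP4 (-2.13 and -2.24) lie in the low tail in both conditions, and TCP10 lies at -0.95 in the dark and -0.12 after light.

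The tables also count reads in the 5′ leader, the stretch before the start codon, where ribosomes may initiate at upstream ATGs. The members' leaders are 488 (TCP2), 290 (TCP3), 483 (TCP4), 540 (TCP10) and 411 (TCP24) bases long in the deposited tables. In the TAIR10.1 annotation, the leaders hold 6, 3, 7, 4 and 7 upstream ATGs in the same order, of which 3, 2, 6, 4 and 6 open a reading frame that ends before the start codon. Upstream ATGs are common, since 71.2% of the 16736 annotated leaders of at least 100 bases have one. The median of those leaders was 6.58 upstream ATGs per kb, and each member had more than that per length. The annotated leaders of TCP2, TCP4 and TCP24 are longer than the deposited ones, at 509, 627 and 439 bases. Some of these ATGs may therefore lie outside the counted stretch or in another transcript model, which was not checked.

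In TCP3 and TCP4 the leader took a larger share of the ribosome-protected reads than of the mRNA reads, whereas for most genes it took a smaller one. The median gene had 4.99 to 5.22% of its leader and coding reads in the leader in mRNA libraries and 0 to 1.36% in ribosome-protected libraries. The comparison of leader with coding reads, made in edgeR over 15814 genes with 1 effect per library, was added after the reads per region had been seen. In it 1.4% of genes had a higher leader share among ribosome-protected reads in the dark and 53% a lower one. After light the figures were 1.92% and 68.1%. TCP3 and TCP4 were called higher in both conditions, TCP10 was called lower after light, and TCP2 and TCP24 were not called. This comparison uses the same coding reads as the ratio above, so a low coding ratio and a high leader share are not separate evidence. Its p-values match a normal test of the change over its SE, as if the spread were known. They and the SE therefore do not carry the uncertainty of a spread estimated from 2 libraries per group, and repeats of a called gene can disagree.

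For TCP4 the leader held 14.1 to 18.3% of the mRNA reads over the 4 libraries. Among ribosome-protected reads it held 37.5% (3 of 8 reads, 95% exact binomial interval 8.52 to 75.5%) and 33.9% in the dark, and 26.7% (4 of 15 reads) and 33.3% (83 of 249 reads, 27.5 to 39.6%) after light. All 4 ribosome-protected libraries were above all 4 mRNA libraries. On the log2 scale the share was higher by 1.38 ± 0.48 in the dark (adjusted p = 0.00954) and by 1.26 ± 0.29 after light (adjusted p = 4.39e-05). The calls rest on the deeper repeat: without the dark ribosome-protected repeat 2 the dark value was 1.58 (adjusted p = 0.343), and without the light ribosome-protected repeat 2 the light value was 0.84 (adjusted p = 0.484). Intervals on shares cover counting error only.

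For TCP3 the leader held 14.1 to 17.2% of the mRNA reads. In dark ribosome-protected libraries it held 23.5% (4 of 17 reads) and 46.4% (39 of 84 reads, interval 35.5 to 57.7%). After light the repeats disagreed, with 6.12% (3 of 49 reads, interval 1.28 to 16.9%) in repeat 1 and 24.02% (122 of 508 reads, interval 20.36 to 27.97%) in repeat 2. The dark difference was 1.97 ± 0.40 (adjusted p = 6.70e-06), a value that 1.15% of genes exceeded, and it was 0.73 (adjusted p = 0.591) without the dark ribosome-protected repeat 2. The light difference was 0.57 ± 0.26 (adjusted p = 0.0374), and without the light ribosome-protected repeat 2 it turned to -1.49 (adjusted p = 0.136). It also missed the threshold without repeat 1 of the dark mRNA (0.47, adjusted p = 0.233) or of the light mRNA (0.41, adjusted p = 0.190).

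Per length, ribosome-protected reads in the dark were denser in the TCP3 leader (2.73 and 8.76 RPKM) than in its coding sequence (2.19 and 2.49 RPKM), while in dark mRNA the leader was the less dense of both (5.74 and 13.1 against 8.11 and 16.7 RPKM). The leader RPKM was computed here from reads, length and library total in the way the authors computed theirs. The leader share of ribosome-protected TCP3 reads fell with light in both repeats, from 23.5 to 6.12% and from 46.4 to 24.02%, a log2 difference of -1.40 ± 0.42 that did not pass over all genes (adjusted p = 0.204). In this comparison 0.019% of genes rose and 0.304% fell. Without the light ribosome-protected repeat 2 the difference was -3.47 and passed (adjusted p = 0.00287). In mRNA the TCP3 share differed between light and dark by -0.01 ± 0.25, and 0.0569% of genes rose and 0.0506% fell in that comparison.

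TCP10 had the opposite order, with 20.2 to 26.4% of mRNA reads in its leader and 6.78 to 14.3% of ribosome-protected reads. The difference was -0.87 ± 0.26 after light (adjusted p = 0.00187) and -0.93 ± 0.68 in the dark (adjusted p = 0.237), where the leader held 1 and 5 reads. Most tested genes had a still lower value than TCP10, 78.7% after light and 74.5% in the dark. TCP2 had 21.3 to 25.2% in mRNA and 23.1 to 32.6% in ribosome-protected reads (0.73 ± 0.40 in the dark, adjusted p = 0.107, and 0.24 ± 0.29 after light). TCP24 had 17.3 to 23.3% and 15.8 to 21.2% (-0.35 ± 0.37 and 0.05 ± 0.28). In the dark and after light, 95.5% and 92.8% of genes had a lower value than TCP2, and 84.3% and 91.0% than TCP24. For TCP3 these shares of genes were 98.8% and 95.2%, and for TCP4 97.9% in both. All 5 members thus lay above most genes in this comparison, the uncalled TCP2 and TCP24 included. For the 3′ untranslated region, all 5 genes had 0 to 3 ribosome-protected reads per library, against 21 to 518 mRNA reads.

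**Figure D4:**
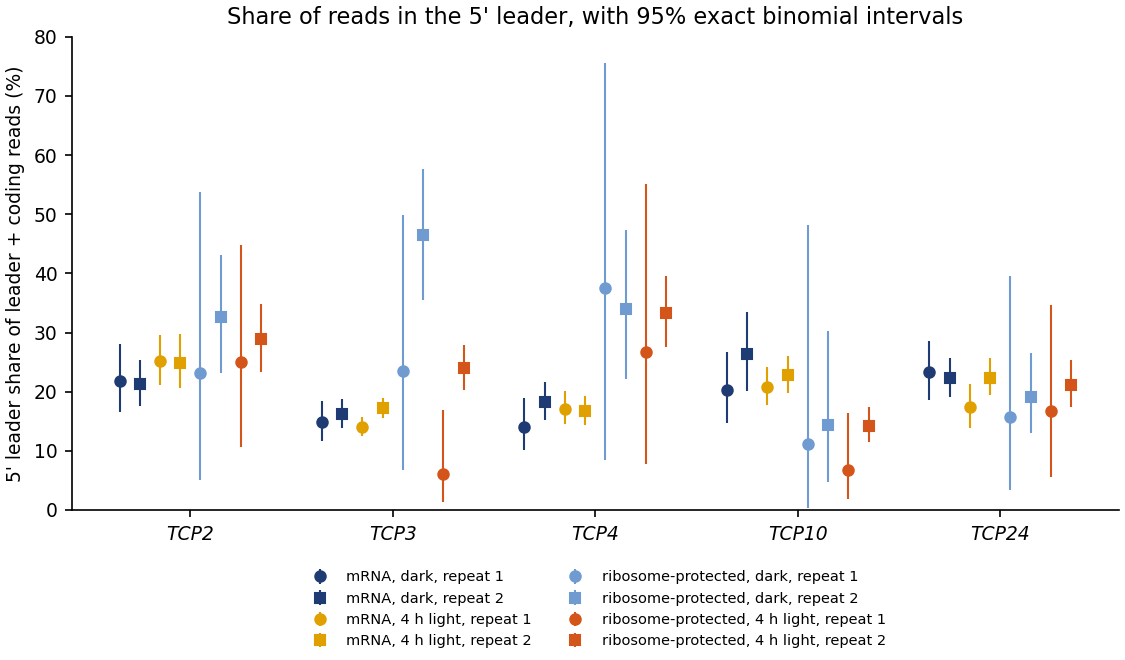
Share of each gene's leader and coding reads that lies in the 5′ leader, in percent, for every library, with 95% exact binomial intervals that cover counting error only. Circles are repeat 1 and squares repeat 2. In TCP4 all ribosome-protected libraries (26.7 to 37.5%) lie above the mRNA libraries (14.1 to 18.3%), in TCP3 both dark ribosome-protected libraries do and 1 light library does not, and in TCP10 all ribosome-protected libraries lie below.

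Counting of these genes has limits that the tables do not settle. Stretches of 28 bases shared with another coding sequence made up 17 of 1149 such windows in TCP3 and 13 of 1236 in TCP4, which share them with each other and, for TCP3, with TCP10, where they were 4 of 1059. TCP2 had 1 shared window and TCP24 none. A long noncoding RNA, AT1G53233, overlaps TCP3 on the opposite strand in the TAIR10.1 annotation. The sources used here do not state if strand was used in counting, and reads of both genes could not be separated.

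Over the 8 libraries, the log2 CPM of TCP3 and TCP4 had the highest Pearson r among the 10 pairs of members, 0.93, and TCP10 and TCP24 the lowest, 0.51. These values describe 8 libraries that share the contrasts of light and read type. Among all other tested genes, the most similar to TCP3 were RSH1 (AT4G02260, r = 0.996) and AT3G18210 (0.989). For TCP10 they were AT4G30825 (0.998) and WTF1 (AT4G01037, 0.995). The genes most like TCP4 were AT1G74750 (0.994) and AT1G14460 (0.992), those most like TCP24 AT2G41160 (0.990) and AT1G66190 (0.989), and those most like TCP2 AT5G40405 (0.975) and CYP71B13 (AT5G25140, 0.944).

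The CIN genes without the miR319 site gave 0 of 3 calls in mRNA and 1 of 3 among ribosome-protected reads, where 3.34% and 4.71% of all genes rose. TCP5 had 5.93 and 4.09 CPM in dark mRNA and 8.88 and 5.77 CPM in light mRNA (0.55 ± 0.33, adjusted p = 0.455). Ribosome-protected TCP5 rose from 1.56 and 1.48 CPM to 5.43 and 6.25 CPM (1.96 ± 0.38, adjusted p = 0.0313). Its light change of the ratio was 1.41 ± 0.50 (adjusted p = 1). TCP13 and TCP17 had ribosome-protected changes of 1.29 ± 0.66 and 2.27 ± 0.92 that did not pass, the latter on 0 to 25 reads per library. With the block TCP13 did (adjusted p = 0.0232), as did TCP5 (0.00219), so 2 of 3 rose among ribosome-protected reads, against 17.3% of all genes. The median mRNA change was 1.03 over the 5 genes with the site, 0.71 over the 3 without it and 0.01 over all genes. For ribosome-protected reads the medians were 0.92, 1.96 and -0.03. In the leader comparison TCP5 had a lower share among ribosome-protected reads after light (-2.15 ± 0.52, adjusted p = 8.48e-05), close to the median of all genes, -2.15.

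Of the 24 TCP genes, the 13 class I genes, a branch often described as promoting growth, had 11 tested members and 1 call in either kind of read. TCP15 fell by 1.37 ± 0.26 in mRNA (adjusted p = 0.0389) and by 1.43 ± 0.27 among ribosome-protected reads (adjusted p = 0.0286), where 1.44% and 2.12% of all genes fell. With the block 2 class I genes rose and 3 fell in mRNA, and 1 rose and 2 fell among ribosome-protected reads. Of all genes 19.4% rose and 14.2% fell in mRNA under the block, and 17.3% and 14.6% among ribosome-protected reads. Of the 3 CYC/TB1 genes, which act in branching, 2 were tested and none called by edgeR's main fit. TCP12 had -3.34 ± 0.74 in mRNA (adjusted p = 0.0587, but 0.00222 with the block and 0.0156 in DESeq2) and TCP18 -1.87 ± 1.73.

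Genes known to act downstream of CIN factors included some that fell and some that were higher with light. In edgeR's main fit, none of 12 rose in either kind of read, 1 fell in mRNA and 3 fell among ribosome-protected reads, with medians of -0.21 and 0.14. The list was not split by the direction in which CIN factors act on each gene, so these medians have no expected sign. Of all genes 1.44% fell in mRNA and 2.12% among ribosome-protected reads. DESeq2 called 1 rise in each kind of read and 4 falls in each. Over all genes it called 2234 in mRNA and 2690 among ribosome-protected reads. Those that fell in the main fit encode SAUR proteins, small auxin-induced proteins that promote cell expansion. SAUR65 had 12.5 and 10.7 CPM in dark mRNA and 2.28 and 1.41 CPM in light mRNA (-2.65 ± 0.42, adjusted p = 0.0228), and its ribosome-protected reads fell by 3.22 ± 0.45 (adjusted p = 0.0120). Among ribosome-protected reads SAUR16 fell by 2.56 ± 0.50 (adjusted p = 0.0334) and SAUR50 fell by 1.62 ± 0.29 (adjusted p = 0.0243). With the replicate block 3 of the 12 rose and 4 fell in each kind of read. Those that fell were the SAUR genes and IAA3, named after its values were seen. IAA3 had -1.01 ± 0.33 in mRNA (adjusted p = 0.161 in edgeR, 0.0200 with the block and 0.0499 in DESeq2). Its ribosome-protected change was -1.41 ± 0.33 (adjusted p = 0.0584, 0.00503 and 0.00299 in the same order). Of all genes 19.4% rose and 14.2% fell in mRNA under the block, and 17.3% and 14.6% among ribosome-protected reads. The 3 that rose under the block, named after their values were seen, had few reads. LOX2, a lipoxygenase of jasmonate synthesis, had 0.0297 and 0.0951 CPM in dark mRNA and 0.190 and 5.34 CPM in light mRNA (5.32 ± 1.98, adjusted p = 0.213, but 0.0174 in DESeq2). Ribosome-protected ARR16, a cytokinin response regulator, had 0 and 0.0703 CPM in the dark and 0.709 and 2.99 CPM after light (adjusted p = 0.0544, but 0.0151 in DESeq2). CUC1, an organ boundary factor, had 2.07 ± 0.58 in mRNA (adjusted p = 0.112). Of 5 genes for partner proteins none was called with light by edgeR's main fit, and DESeq2 called SPL9 higher in mRNA (3.09 ± 0.82 in edgeR, adjusted p = 0.0970, and 0.0289 in DESeq2). The most abundant were TPL, a corepressor (-0.28 ± 0.27 in mRNA), and BRM, a chromatin-remodelling ATPase (-0.23 ± 0.57). With the block 2 of the 5, SPL9 and AS2, rose in each kind of read, and both were named after their values were seen. Of all genes 19.4% rose in mRNA under the block and 17.3% among ribosome-protected reads.

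The MYB genes targeted by miR159, and to a lesser extent by miR319, gave 3 tested genes of 5 and no light call in edgeR's main fit. With the block MYB101 fell in mRNA (adjusted p = 0.00193) and a different gene, MYB65, among ribosome-protected reads (adjusted p = 0.0178). Of all genes 14.2% fell in mRNA under the block and 14.6% among ribosome-protected reads. DESeq2 called MYB101 lower in mRNA (-1.33 ± 0.31 in edgeR, adjusted p = 0.0696, and 0.0108 in DESeq2). Their ratios of ribosome-protected to steady-state reads were low. MYB33, a GAMYB-type factor, had 16.1 and 19.7 CPM in dark mRNA and 5.79 and 3.02 CPM among ribosome-protected reads (-2.07 ± 0.35, adjusted p = 0.0352), and -2.50 ± 0.36 after light (adjusted p = 0.0323). MYB65 had -1.33 ± 0.36 in the dark (adjusted p = 0.0833, and 0.00341 with the block) and -2.06 ± 0.37 after light (adjusted p = 0.0478). MYB101, named after its values were seen, had -2.55 ± 0.35 and -2.05 ± 0.36 (adjusted p = 0.0291 and 0.0458). So 2 of 3 were called low in the dark and 3 of 3 after light, where 3.87% and 2.36% of all genes were, and with the block 3 of 3 in both, against 21.1% and 18.4%. Low ratios also occurred in listed genes outside the targets of these microRNAs, named after their values were seen. AS1, a MYB factor of leaf polarity, had -2.19 ± 0.29 in the dark (adjusted p = 0.0273) and -1.71 ± 0.29 after light (adjusted p = 0.0409). TCP5 had -1.73 ± 0.37 in the dark (adjusted p = 0.0523, but 0.00491 with the block and 0.0102 in DESeq2) and -0.31 ± 0.34 after light.

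Summed leaf and cotyledon markers were higher after light, but single markers rarely passed the test and KAN1 did not rise. The summed CPM of 5 leaf and cotyledon markers was 156.3 and 178.8 in dark mRNA and 205.5 and 255.6 in light mRNA, and 162.8 and 155.4 against 207.1 and 229.2 among ribosome-protected reads. ATML1 made up most of the mRNA sums, with 100.5 and 111.5 CPM in the dark and 123 and 165.1 after light. Its mRNA change was not called (0.44 ± 0.24, adjusted p = 0.408, edgeR). KAN1 had -0.19 ± 0.23 in mRNA and -0.29 ± 0.24 among ribosome-protected reads. In edgeR's main fit 0 of these 5 genes rose in mRNA and 1 rose among ribosome-protected reads, against 3.34% and 4.71% of all genes. That gene was YAB1, an organ polarity factor (1.61 ± 0.25, adjusted p = 0.0157). With the block and in DESeq2, YAB1 and YAB5 rose in each kind of read. Under the block 19.4% of all genes rose in mRNA and 17.3% among ribosome-protected reads. The 6 root markers summed to 85.6 to 106.5 CPM in mRNA without a gap between conditions, and to 102.2 and 93.7 in the dark against 66.1 and 62.9 after light among ribosome-protected reads. Of 3 root markers tested 1 was called, against 1.44% of all genes that fell in mRNA and 2.12% among ribosome-protected reads. PIN2, a root auxin carrier, fell in both kinds of read (log2 -1.92 ± 0.32 and -2.22 ± 0.33, adjusted p = 0.0262 and 0.0142). Its ribosome-protected level was 39.2 and 35.1 CPM in the dark and 10.6 and 5.75 CPM after light. SCR, the most abundant of the 6, was not called (0.30 ± 0.19 in mRNA and 0.05 ± 0.19 among ribosome-protected reads). SHR was not called either (-0.27 ± 0.28 and -0.67 ± 0.29). COBL9, PLT1 and EXPA7, which mark root hairs and the root stem cell niche, were at or near 0 in all libraries. The 3 shoot meristem markers summed to 4.85 to 17.4 CPM, nearly all from STM, with WUS at or near 0. The part of these tissue shares in the changes of the TCP genes was not tested.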

How the data were processed

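The deposited counts are whole reads per gene in the 5′ untranslated region, coding sequence and 3′ untranslated region, made by the authors per the file headers and not normalized. The RPKM values of coding sequences are also the authors' own, per the file headers, and were used only to compare levels between genes. The other 16 RPKM columns were not used. The build was TAIR 10 per the submitters' processing notes; the aligner, the counting tool and the handling of multi-mapped reads are not named by the sources used here. The reference was TAIR10.1, in which 26690 gene models matched and 96.6% of coding lengths, but 33.3% of leader lengths, equalled the deposited ones.

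Groups and repeat numbers came from the labels. Coding reads of all 8 libraries were filtered (filterByExpr), scaled by TMM (factors 0.824 to 1.26) and fitted with edgeR 4.0.16 (R 4.3.3), quasi-likelihood, 1 mean per group, two-sided, with Benjamini-Hochberg adjustment over 19823 genes and a threshold of 0.05. The standard error is the log2 change divided by the root of F, and 95% intervals use it with the t quantile of the fit. Leader and coding reads were compared in a second edgeR fit of both columns of each library, over genes with at least 10 reads in each region, added after seeing the data. The p-values of this second fit match a normal test of the change over its SE. Alternatives were RLE scaling, no filter, DESeq2 1.42.0, a replicate block, reads of all 3 regions, organelle genes left out, libraries of 1 kind only, and leaving out each library. The fits were tested on simulated data.

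Libraries of the same number deviated together from their group means (r across genes 0.576 to 0.806 over the pairs of groups), so the repeat numbers were taken to pair the samples, from the data, as the labels give only numbers. The main fit has no block, and blocked values stand beside results whose call they change. The members and lists were chosen with earlier results of these data known. Named genes were the 5 members and, from each other list, those called in a light contrast or, with none, the 2 most abundant; the other CIN genes, the tissue and light markers and genes marked as such in the text were named beyond this rule, after their values were seen. Likeness took the 2 genes of highest r per member.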

Additional observations from a re-analysis of the deposited data

How the results depend on the processing

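Under the alternatives, 456 of the members' changes kept direction and side of the threshold, 7 passed it newly, 47 no longer passed it and 30 changed sign. The cause was not tested. Members called with light in mRNA numbered 2, but 1 with RLE scaling or reads of all 3 regions, 0 with mRNA libraries alone and 0 to 1 without any one library. Among ribosome-protected reads they numbered 2, but 1 with all 3 regions or that kind of library alone, and 0 to 2 without any one library. Members called low in ribosome-protected reads per mRNA numbered 1 in the dark (DESeq2 2, replicate block 3) and 1 after light (DESeq2 2, replicate block 2), and 0 without any one library in both. Over all genes, the count of calls was 947 for light in mRNA (DESeq2 2234, replicate block 6659, mRNA libraries alone 0, leaving out a library 3 to 661). For ribosome-protected reads it was 1355 (DESeq2 2690, block 6341, that kind alone 614, leaving out a library 173 to 1119). For the light change of their ratio it was 0 (DESeq2 15). For the ratio in the dark it was 923 (DESeq2 2696, block 8004, all 3 regions 432, leaving out a library 0 to 0), and after light 487 (DESeq2 1694, block 6470, all 3 regions 299, leaving out a library 0 to 262). The pairing of repeats by the block changed no other call of the members than those given for TCP4 and TCP10; it turned the TCP24 change of the ratio to -0.0714, and reads of all 3 regions turned that of TCP3 to -0.0814.

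Leaving out 1 library at a time, uncalled values spanned 0: TCP2 -0.0937 to 0.75 and TCP24 -0.02215 to 0.88 in mRNA, TCP24 -0.0139 to 1.16 in ribosome-protected reads, and for the change of the ratio TCP2 -0.20 to 0.90, TCP3 -0.0513 to 0.76, TCP4 -0.71 to 0.79 and TCP24 -0.51 to 0.75. Leader shares spanned 0 likewise. The light change in ribosome-protected reads ran from -0.45 to 0.39 (TCP2), -1.13 to 0.26 (TCP10) and -0.20 to 0.47 (TCP24), and in mRNA from -0.19 to 0.16 (TCP3), -0.13 to 0.31 (TCP4) and -0.36 to 0.14 (TCP10). Ribosome-protected against mRNA after light ran from -0.0028 to 0.28 (TCP2), -1.49 to 0.77 (TCP3) and -0.34 to 0.32 (TCP24). Members called in the leader contrasts ran from 0 to 1 (light change, ribosome-protected, 0 in the full set), 0 to 2 (dark, 2) and 1 to 3 (after light, 3), and all genes from 29 to 282 (51), 5 to 32 (light change in mRNA, 17), 4436 to 9042 (8608) and 6540 to 11157 (11077). The ribosome-protected libraries of repeat 1, with 1 to 7 leader reads per member, limit these shares.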
